A study of Mus musculus with 15 samples.

Results

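The response to CL in 12-month-old mice was described from 7 of the 15 libraries of the series, over all 24015 genes of the count table. The 7 are 3 libraries from mice given vehicle (Old_Ctrl 1, 3 and 4) and 4 from mice given CL (Old_CL 1, 2, 3 and 4). Old_Ctrl 2 was not analysed here. The tissue was inguinal white adipose tissue, the subcutaneous fat pad of the groin, of C57BL/6 mice, an inbred laboratory strain with no other allele named in the labels. All groups were kept at thermoneutrality, a temperature at which a mouse needs no extra heat production, for 2 weeks. They were then injected i.p. with vehicle or CL for 5 days. The labels spell CL out as cardiolipin. The same 2 letters also stand for an agonist of the β3-adrenergic receptor, so it is not settled what was injected, and the treatment is called CL here. The 8 libraries from 2-month-old mice (Young_Ctrl 1 to 4 and Young_CL 1 to 4) entered the same fit and are used for the test of whether the response differed between ages. Whether every library stems from a separate animal is not stated in the labels. The spread behind each p-value is that between libraries and may be technical.

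White adipocytes store triglyceride and release fatty acids by lipolysis when catecholamines act on their β-adrenergic receptors. On sustained stimulation the inguinal pad gains beige adipocytes, which are rich in mitochondria and carry UCP1, an inner membrane protein that lets protons flow back without ATP being made, so that fuel is burned as heat. Between the adipocytes lie progenitors that lay down collagen, blood vessels, macrophages and lymphocytes, and a lymph node is embedded in the pad.

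CL against vehicle at 12 months asks which transcripts of the pad the treatment moves at this age. Of 15288 genes that passed the filter on low counts, 6916 (45.2%) were called at an adjusted p under 0.05, 3525 higher (23.1%) and 3391 lower (22.2%) after CL. Changes of at least 2-fold were called for 962 genes higher and 1134 lower, and changes of at least 4-fold for 159 and 62. The median change of all genes was -0.01 on the log2 scale. For 8078 genes (52.8%) the libraries of the groups did not overlap. The share of a gene list that rose or fell is to be read against these percentages. The named genes with the largest rise were Elovl3, Cpn2, Otop1, Cox8b and Ucp1, and those with the largest fall were Ccl8, Sfrp4, Prtn3, Sult1e1 and Oas3. The largest rises and falls were picked among called genes whose libraries did not overlap. For them, a lack of overlap stated below is a condition of naming and no separate support. The vehicle libraries of Elovl3 and Cpn2 all lay below 0.462 CPM, the level of 3 counts in the shallowest library, so the sizes of these rises are uncertain. Prtn3 changed by -2.67 ± 0.52†, and by -1.44 without Old_Ctrl 3; Oas3 changed by -2.36 ± 0.42†, and by -1.69 without Old_Ctrl 1. Below, levels are TMM-scaled CPM (counts scaled to the depth of the library), given per library or as mean ± SD (n = 3 and 4), and changes are log2 changes ± SE or, in parentheses after a gene, log2 changes alone. For a list, "higher" and "lower" count the tested members called, and the median is that of the log2 changes of all tested members. A † marks a call lost when lymph node markers enter as a covariate (the lymph node fit), and a ‡ one lost when Old_CL 1, 2 and 4 are summed (the summed fit).

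Total counts ran from 6495373 to 51577001 in the vehicle libraries and from 15723586 to 40235461 in the CL libraries, so 3 counts stand for at most 0.462 CPM. Old_CL 1, 2 and 4 were nearly alike (robust SD of log2 ratios 0.0636 to 0.0933), while every other pair in either group lay at 0.212 to 0.283. Their counts still differed by more than sampling noise (chi-square per degree of freedom 2.65 to 4.90, and counting noise alone would give an SD of 0.0450 to 0.0464). That cannot tell separate animals from separate preparations of 1 source. They are kept as 3 samples, and if they share a source the p-values of the main fit are too small. With these 3 summed into 1 library (the summed fit) 4793 genes were called, and 69.1% of the main calls were kept. Skeletal muscle transcripts were high in Old_Ctrl 3 (summed level of the marker list 9034 CPM) and Old_CL 3 (4285 CPM) and stood at 153 to 534 CPM in the other 5 libraries. Without those libraries, 5230 genes were called and 70.0% of the main calls were kept. Summed B cell and lymph node markers stood at 1589, 1473 and 982 CPM in Old_Ctrl 1, 3 and 4 and at 875 to 1000 CPM after CL. With the mean log2 CPM of that list as a covariate 2704 genes were called, and 34.1% of the main calls were kept. Where this lymph node fit, the summed fit or leaving out the muscle-rich pair moved a list's count by over 1.5 times, that count is given below. Of the 169 named genes called, 58 lost their call in the lymph node fit and 18 in the summed fit. The lymph node markers were themselves lower after CL (14 of 19 genes, median log2 change -0.71), so this covariate moves with the treatment. A call lost in the lymph node fit therefore cannot tell lymph node content from the effect of CL. The part of lymph node content in the results was not tested further.

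Markers of the cells of the pad shifted with CL. Summed over the adipocyte list, they stood at 37125, 39810 and 53257 CPM in Old_Ctrl 1, 3 and 4 and at 71415 to 86372 CPM in the CL libraries. Macrophage markers stood at 3167 to 4657 CPM under vehicle and 1644 to 2278 CPM under CL, and progenitor markers at 3553 to 5533 and 1877 to 1950 CPM. T and NK cell markers stood at 1154 to 1331 and 403 to 626 CPM. None of these ranges overlapped. In bulk tissue, fewer cells of a type and less RNA per cell cannot be told apart. Red cell markers (Alas2 and the globins, several of which share all their reads) were higher after CL, at 1103 to 1371 CPM against 411 to 929 CPM. Keratinocyte markers stood at 90 to 119 CPM under vehicle and 53 to 59 CPM under CL, and mammary epithelium markers at 37 to 58 and 41 to 58 CPM. The defining markers of skin (Krt5, Krt14), of milk secretion (Csn3) and of mesothelium (Msln, Upk3b) did not pass the filter on low counts.

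**Figure D1:**
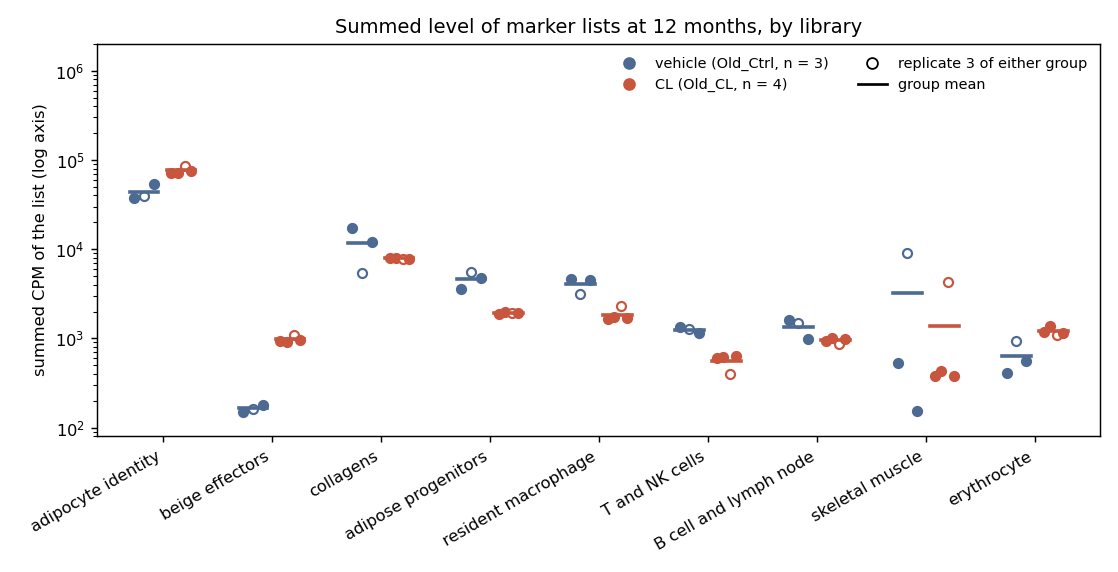
Summed CPM of each marker list (log axis) in the 3 vehicle and 4 CL libraries at 12 months, 1 point per library, with replicate 3 of each group as an open symbol. Adipocyte and beige markers lie higher in all CL libraries and macrophage, progenitor and T and NK cell markers lower, and the skeletal muscle list sets the open symbols apart in both groups.

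Thermogenic effectors, the genes that carry out heat production in brown and beige fat, rose almost without exception. Of these, 17 of 18 genes were higher and 0 lower, with a median of 3.16, and 13 were still called in the lymph node fit. Ucp1 stood at 2.31, 4.27 and 1.7 CPM in Old_Ctrl 1, 3 and 4 and 57.8, 56.3, 94 and 66 CPM in Old_CL 1, 2, 3 and 4. All 4 CL libraries lay far above all 3 vehicle libraries, with the muscle-rich Old_CL 3 the highest (log2 change 4.54 ± 0.50, adjusted p = 2.31e-05, or 5.19 without Old_Ctrl 3). Cidea, which enlarges lipid droplets and marks brown fat, read 14.4, 11.5 and 19.4 CPM under vehicle and 150.2, 129, 186 and 161 CPM under CL, with no overlap (3.37 ± 0.43, adjusted p = 6.25e-05, or 2.50 in the lymph node fit). Cox8b, a respiratory chain subunit of brown fat and muscle, read 7.49, 13.9 and 12.1 CPM under vehicle and 255, 273, 284 and 276 CPM under CL. Its spread within each group was small beside the 23.6-fold difference, and Old_Ctrl 3 and Old_CL 3 were not set apart from the others (4.56 ± 0.32, adjusted p = 8.15e-07, or 3.97 in the lymph node fit).

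Otop1, a proton channel, rose 29.4-fold, from values of 0.91 to 1.98 CPM to 37.6 to 46.9 CPM (4.88 ± 0.33). Elovl3 elongates fatty acids in brown fat. It read 0, 0.269 and 0.0354 CPM in Old_Ctrl 1, 3 and 4 and 9.77, 10.03, 27.2 and 9.79 CPM in Old_CL 1, 2, 3 and 4. Its change of 6.37 ± 0.62 moved to 8.67 without Old_Ctrl 3, so its size rests on near-zero vehicle counts. Dio2, which activates thyroid hormone, read 1.3, 0.43 and 1.1 CPM under vehicle and 10.3, 8.59, 6.11 and 10.5 CPM under CL (3.49 ± 0.36, adjusted p = 1.28e-05). Gyk, the glycerol kinase that lets adipocytes reuse glycerol, rose from 6.52 ± 1.68 to 22.1 ± 2.41 CPM (1.82 ± 0.18). Cpt1b, the muscle and brown fat form of the enzyme that admits fatty acids to mitochondria, rose from 10.4 ± 6.01 to 82.9 ± 13.5 CPM (2.96 ± 0.39, or 3.63 without Old_Ctrl 3).

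**Figure D2:**
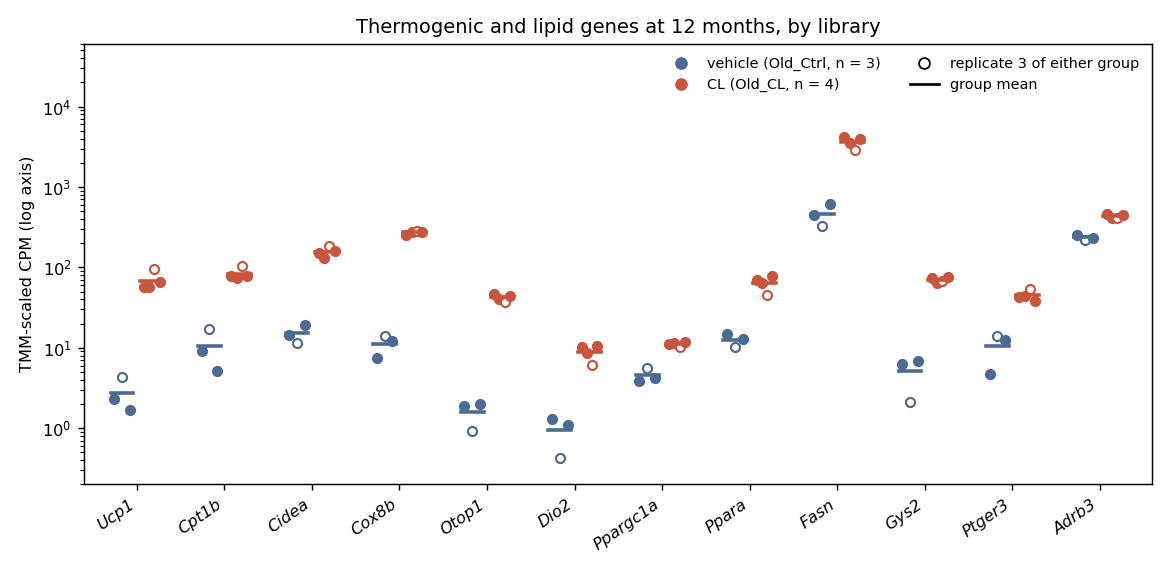
CPM (log axis) of 12 genes of heat production, lipid synthesis and β-adrenergic signalling in each 12-month library, with the group mean as a bar and replicate 3 of each group as an open symbol. All 12 genes are higher in every CL library than in every vehicle library, and the distance is widest for Otop1, Cox8b and Ucp1.

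Transcriptional regulators of the beige programme moved less than its effectors. Of them, 7 of 19 genes were higher and 2 lower, with a median of 0.30. Ppara, a nuclear receptor that drives fatty acid oxidation genes, read 14.7, 10.2 and 12.8 CPM under vehicle and 69.7, 63.9, 45.7 and 78.9 CPM under CL and rose 5.23-fold (2.39 ± 0.37, adjusted p = 2.40e-04). Ppargc1a, the coactivator of mitochondrial biogenesis, rose from 4.56 ± 0.922 to 11.1 ± 0.75 CPM (1.24 ± 0.26, adjusted p = 0.00122), and the estrogen-related receptor gene Esrrg from 0.907 ± 0.303 to 3.89 ± 0.459 CPM (2.09 ± 0.30, or 3.08 in the lymph node fit). Esrra rose by less (0.63 ± 0.12†), and so did the mitochondrial deacetylase gene Sirt3 (0.89 ± 0.17†). Prdm16, which sets the brown fat fate, read 25.1, 17 and 15.5 CPM under vehicle and 25.1, 25.4, 16.8 and 25.6 CPM under CL, overlapping between groups, and did not pass (0.30 ± 0.26, adjusted p = 0.369). Ebf2, another factor of that fate, did not pass either (-0.30 ± 0.16, adjusted p = 0.129), except without Old_Ctrl 1 (-0.50). Nrf1, a factor for respiratory chain genes, was slightly lower (-0.30 ± 0.10†‡), a call lost without Old_Ctrl 1 (-0.23), Old_Ctrl 3 (-0.27), Old_CL 2 (-0.27) and Old_CL 3 (-0.28). Perm1 also fell (-0.81 ± 0.25†‡), but not without Old_Ctrl 3 (-0.50). Gatm, which makes the creatine precursor used in creatine cycling, fell from 20.1 ± 4.23 to 10.5 ± 0.823 CPM (-0.92 ± 0.18), and in that list of creatine and calcium cycling genes 2 of 11 genes were higher and 2 lower, with a median of -0.16.

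In adrenergic and cyclic nucleotide signalling, 14 of 26 genes were higher (4 in the lymph node fit) and 5 lower (0 in the lymph node fit, 3 in the summed fit and 2 without the muscle-rich pair), with a median of 0.53. The number lower was 2 without Old_Ctrl 3 or Old_CL 3 and 3 without Old_Ctrl 1, Old_CL 1 or Old_CL 4. Adrb3, the β3-adrenergic receptor, read 253, 219 and 235 CPM under vehicle and 456, 414, 416 and 453 CPM under CL (0.88 ± 0.26†‡, adjusted p = 0.0118), so every CL library was above every vehicle library. Its call was lost without the muscle-rich pair (0.86), in the summed fit (0.87) and in the lymph node fit (0.64); it lies outside the naming rule and was chosen after its values were seen. Adra1a, an α1 receptor, rose from 8.67 ± 3.36 to 28 ± 1.2 CPM (1.70 ± 0.38†), while Adra2a, an α2 receptor that inhibits adenylyl cyclase, fell from 3.15 ± 0.45 to 1.46 ± 0.639 CPM (-1.09 ± 0.31†). Among the kinase subunits, Prkar2b, the regulatory subunit of protein kinase A that prevails in fat, rose 3.03-fold (1.60 ± 0.23). Of the phosphodiesterases that break down cyclic nucleotides, Pde3b (0.80†) and Pde4a (0.67) rose and Pde4b fell (-0.57†). Rgs2, which shortens G protein signals, rose from 31 ± 5 to 78.1 ± 16.3 CPM (1.33 ± 0.18).

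**Figure D3:**
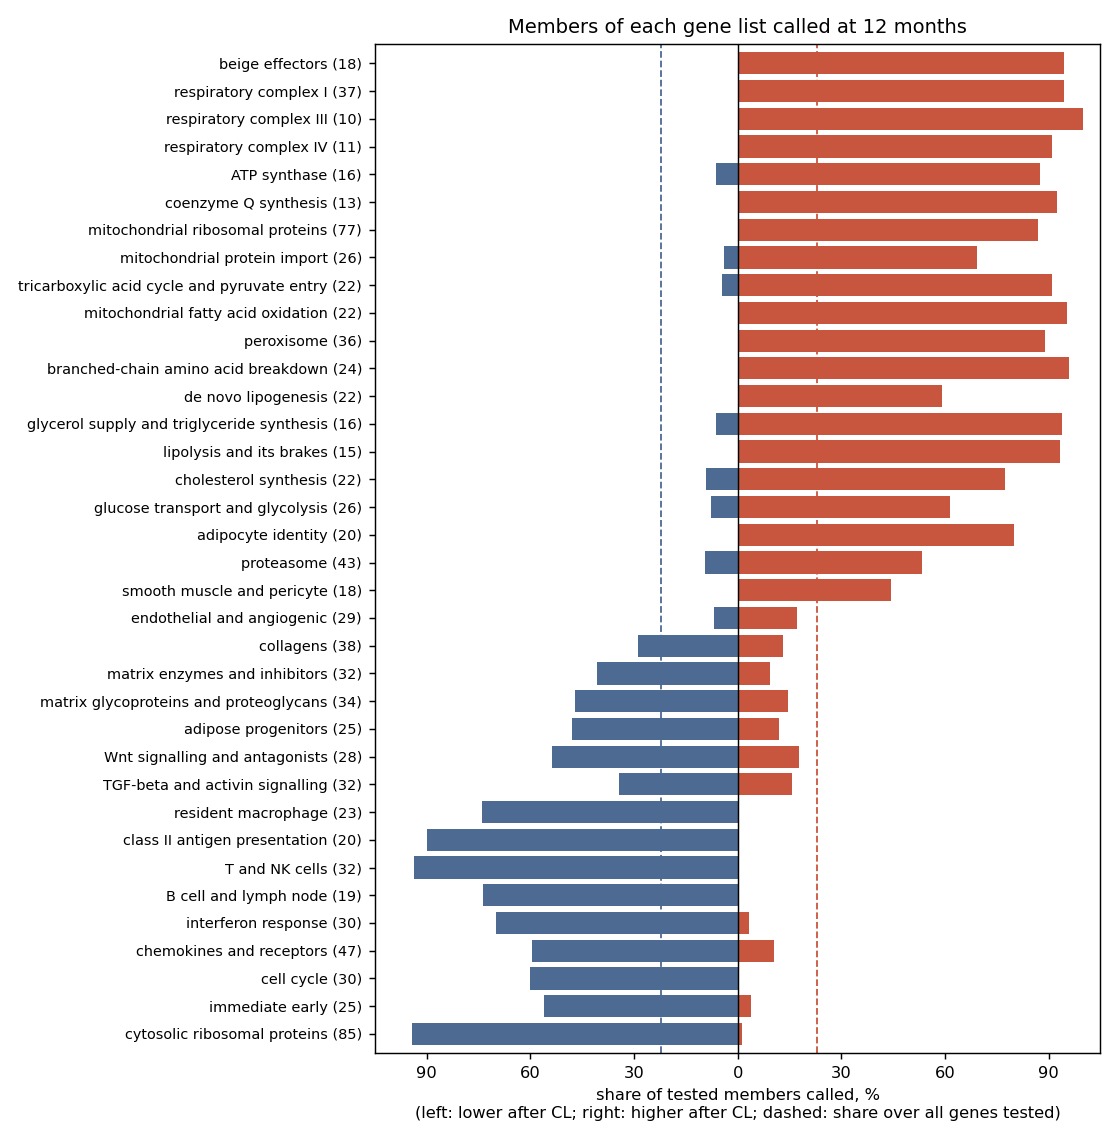
Percent of the tested members of each gene list called higher (right) or lower (left) after CL at 12 months; dashed lines mark the shares over all genes tested, 23.1% and 22.2%. Mitochondrial and lipid lists lie on the right, and immune, matrix and cytosolic ribosome lists on the left.

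Listed genes of the respiratory chain, which pumps protons across the inner mitochondrial membrane, rose with few exceptions, by up to 3.93-fold (Atp5b). The lists leave out some subunits of complex IV, among them Cox8b, described above, which rose 23.6-fold. In complex I, the NADH dehydrogenase, 35 of 37 genes were higher and 0 lower, with a median of 1.04. In complex III, which passes electrons to cytochrome c (Cycs, counted in this list), 10 of 10 genes were higher and 0 lower, with a median of 1.60. In complex IV, cytochrome c oxidase, 10 of 11 genes were higher and 0 lower, with a median of 1.21, and in ATP synthase 14 of 16 genes were higher and 1 lower, with a median of 0.87. All 4 complex II genes rose. In the lymph node fit 20, 9, 8 and 9 members of complexes I, III and IV and ATP synthase were still called higher. Ndufs1, the largest subunit of complex I, read 84.3, 100.01 and 109 CPM under vehicle and 270.4, 257, 303 and 279 CPM under CL. The 3 vehicle libraries lay well below the CL libraries, with no overlap (1.50 ± 0.16, adjusted p = 1.56e-05). Atp5b, the catalytic subunit of ATP synthase, read 912, 952 and 1124 CPM under vehicle and 3643, 3587, 4644 and 3802 CPM under CL (1.98 ± 0.23, adjusted p = 2.10e-05), and Cycs, cytochrome c, rose from 42 ± 4.39 to 155 ± 20.4 CPM (1.89 ± 0.21). The one member that fell was Atpif1, the inhibitor of ATP synthase run in reverse (-0.48 ± 0.15‡), a call lost without Old_Ctrl 1 (-0.37), Old_Ctrl 4 (-0.37), Old_CL 1 (-0.44) and Old_CL 4 (-0.45). Cox7a2l, an assembly factor of supercomplexes, did not pass (-0.21 ± 0.10, adjusted p = 0.0967), but it passed as lower in 4 other settings: without Old_Ctrl 1 (-0.30), in the lymph node fit (-0.40), with upper-quartile scaling (-0.28) and with DESeq2 (-0.23).

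Part of the respiratory chain genes rose less with CL at 12 months than at 2 months. Over the 78 tested genes in the lists of complexes I to IV and ATP synthase, 73 were higher at 12 months and 77 had a smaller change at 12 months than at 2 months. The age by CL interaction was called for 37 of the 78, all in that direction, against 7.08% of all genes (1083 genes). Cox5a, a subunit of complex IV, rose from 106 ± 9.92 to 219 ± 14.6 CPM at 12 months (1.04 ± 0.13) and from 103 ± 8.96 to 518 ± 86.3 CPM at 2 months (2.33 ± 0.12; interaction -1.29 ± 0.17, adjusted p = 0.00118). This difference was called in all 26 settings tried. The number of interaction calls depended on single libraries. In complex I it was 22 of 37, but 4 without Old_Ctrl 4, 9 without Young_CL 1, 9 without Young_CL 2, 11, 10 and 9 without Old_CL 1, 2 or 4 in turn, and 34, 14 and 13 without Young_Ctrl 1, 2 or 3 in turn. It was 1 with Old_CL 1, 2 and 4 summed and 8 with summed muscle markers as a covariate. Muscle transcripts were high in 3 of the 4 Young_CL libraries (3058 to 5629 CPM, and 193 CPM in Young_CL 4), and their part in this difference was not tested beyond that covariate.

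**Figure D4:**
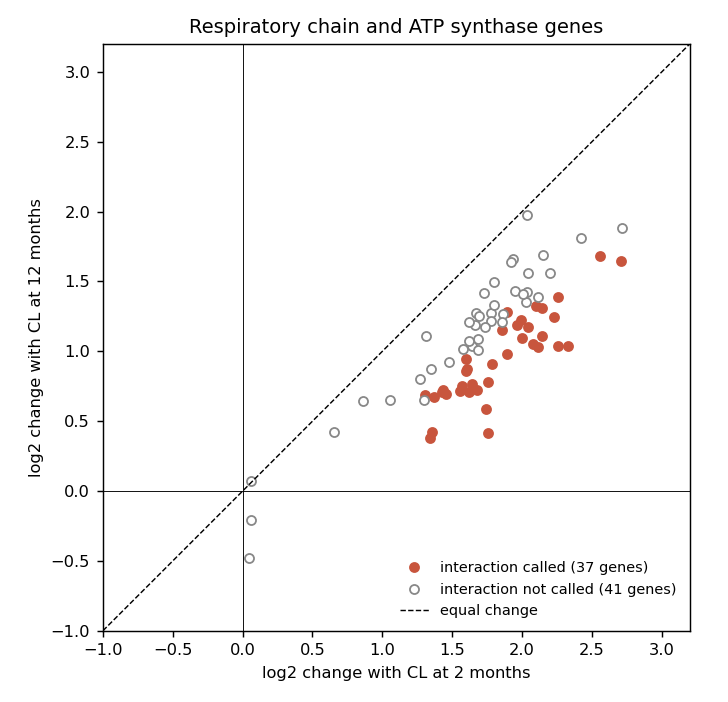
Log2 change with CL at 2 months (x axis) and at 12 months (y axis) of the 78 listed respiratory chain and ATP synthase genes, each point 1 gene, with the line of equal change. Of the points, 77 lie below the line; filled points are the 37 genes with an interaction call and open points the 41 without.

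Promoters of the respiratory chain genes were read for the letters of NRF1, a transcription factor of nuclear mitochondrial genes, in the RefSeq table of GRCm38.p6. That is another build than the mm9 of the counts, and genes were matched by symbol. The letters CGCATGCG, the same on both strands, were searched from 250 bases before to 50 after each gene start. They stood in 1.91% of all 27025 promoters, in 3.58% of the 11255 tested genes with a promoter, in 5.18% of 2644 genes that rose and in 2.01% of 2491 that fell. Of the genes with a promoter, 2 of 33 in complex I (6.06%), 0 of 3 in complex II, 3 of 6 in complex III, 1 of 9 in complex IV and 3 of 14 in ATP synthase held them, and among mitochondrial ribosomal proteins 7 of 68 (10.3%). Cycs, Atp5k and Cox6a1 are shown as examples from the lists of complex III, ATP synthase and complex IV. Each is given as 60 bases 5′ to 3′ on the gene's strand with the match in capitals. A match is a description of letters, not a bound site.
Cycs, chr6:50566597-50566656, minus strand: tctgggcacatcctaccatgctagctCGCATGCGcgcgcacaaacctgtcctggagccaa
Atp5k, chr5:108434415-108434474, minus strand: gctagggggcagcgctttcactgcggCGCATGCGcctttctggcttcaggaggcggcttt
Cox6a1, chr5:115349086-115349145, minus strand: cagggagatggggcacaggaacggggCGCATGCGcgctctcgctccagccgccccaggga
All of these rose: Cycs as above, Atp5k from 73.8 ± 9.95 to 168 ± 14.4 CPM (1.19 ± 0.15) and Cox6a1 from 285 ± 46.8 to 746 ± 76.8 CPM (1.39 ± 0.19). Of the 78 tested genes in the lists of complexes I to IV and ATP synthase 73 were higher. The rise of these examples therefore does not bear on the letters. The cyclic AMP response element TGACGTCA stood in 3.63% of promoters of genes that rose, 2.17% of those that fell and 3.04% of those tested. The estrogen-related receptor letters TCAAGGTCA, searched on both strands, stood in 0.227%, 0.361% and 0.24%.

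The mitochondrial and cytosolic ribosomes moved in opposite directions. Of the mitochondrial ribosomal protein genes, whose products translate the respiratory chain subunits encoded in mitochondria, 67 of 77 genes were higher and 0 lower, with a median of 0.61. Of the cytosolic ribosomal protein genes, 80 of 85 genes were lower and 1 higher, with a median of -0.63. In the lymph node fit 16 of the former were still called higher and 67 of the latter lower. Mrpl37, of the large mitochondrial subunit, read 42.5, 42.9 and 48.9 CPM under vehicle and 89.6, 82.6, 93.9 and 83.6 CPM under CL (0.96 ± 0.10, adjusted p = 1.29e-05). Rpl10, of the large cytosolic subunit, read 590.1, 648 and 690.5 CPM under vehicle and 383, 373, 378 and 361 CPM under CL (-0.78 ± 0.11, adjusted p = 9.51e-05). Neither overlapped between groups. Reads of cytosolic ribosomal protein genes are shared with processed pseudogenes, so single members are uncertain. The one member that rose, Rps4l (0.46 ± 0.17†‡), lost its call without Old_Ctrl 1 (0.51), Old_Ctrl 3 (0.40), Old_Ctrl 4 (0.46), Old_CL 1 (0.45), Old_CL 2 (0.47) and Old_CL 3 (0.38).

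Other mitochondrial lists also had more members higher than lower. In mitochondrial protein import 18 of 26 genes were higher (9 in the lymph node fit) and 1 lower, with a median of 0.56, among them the chaperonin gene Hspd1 (1.0) and the presequence peptidase subunit Pmpcb (1.53); Tomm34, a cochaperone, fell (-0.47†). Coenzyme Q, the electron carrier of the inner membrane, is made by the products of a list in which 12 of 13 genes were higher (7 in the lymph node fit) and 0 lower, with a median of 1.09; Coq9, its lipid-binding subunit, rose from 82.7 ± 8.91 to 293 ± 26.7 CPM (1.82 ± 0.22). In synthesis and remodelling of cardiolipin, the lipid of the inner membrane, 8 of 12 genes were higher (4 in the lymph node fit) and 0 lower, with a median of 0.52. Crls1, the cardiolipin synthase, rose from 48.2 ± 3.58 to 85.4 ± 16.6 CPM (0.82 ± 0.18†). In mitochondrial dynamics and mitophagy 13 of 18 genes were higher (5 in the lymph node fit) and 0 lower, with a median of 0.58, led by the fusion protein Opa1 (1.10) and the cristae organiser Immt (1.39). Among mitochondrial carriers 25 of 42 genes were higher (14 in the lymph node fit) and 6 lower (3 in the summed fit), with a median of 0.56: the citrate carrier Slc25a1 (2.29) and the pyruvate carrier Mpc2 (1.71) rose, and the aspartate/glutamate carrier Slc25a12 fell (-0.78). In synthesis of heme, the cofactor of cytochromes, and iron uptake 7 of 16 genes were higher (4 in the lymph node fit) and 3 lower, with a median of 0.17; Alas1, the first enzyme, rose from 191 ± 51.7 to 589 ± 94.1 CPM (1.62 ± 0.23). Of antioxidant genes 12 of 29 genes were higher (4 in the lymph node fit) and 4 lower, with a median of 0.29, with the mitochondrial dismutase gene Sod2 at 1.57 ± 0.18 and the extracellular peroxidase gene Gpx3 at -2.09 ± 0.24; 7 rose without Old_Ctrl 3 and Old_CL 3.

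Genes of fuel oxidation rose together. In the tricarboxylic acid cycle and the entry of pyruvate, 20 of 22 genes were higher and 1 lower, with a median of 1.61. Mdh2, the malate dehydrogenase of the cycle, read 222, 216 and 271 CPM in Old_Ctrl 1, 3 and 4 and 792, 758, 959 and 781 CPM in Old_CL 1, 2, 3 and 4. The lowest CL library lay above the highest vehicle library (1.80 ± 0.18, adjusted p = 1.01e-05). Dlat, of the pyruvate dehydrogenase complex, rose from 73.3 ± 13 to 308 ± 17.5 CPM (2.07 ± 0.21), and Pdp1, the phosphatase that activates that complex, was lower (-0.37 ± 0.13†‡), a call lost without Old_Ctrl 3 (-0.36), Old_Ctrl 4 (-0.33), Old_CL 1 (-0.35), Old_CL 2 (-0.35) and Old_CL 4 (-0.36). In mitochondrial fatty acid oxidation 21 of 22 genes were higher and 0 lower, with a median of 1.66. Acadl, the long-chain acyl-CoA dehydrogenase, read 196, 191 and 245 CPM under vehicle and 968, 921, 1246 and 991 CPM under CL (2.29 ± 0.24, adjusted p = 1.28e-05). Etfdh, which hands its electrons to coenzyme Q, rose 4.24-fold (2.08 ± 0.23). In the lymph node fit 18 cycle genes and 14 oxidation genes were still called higher.

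Of the genes of peroxisomes, which shorten very long fatty acids, 32 of 36 genes were higher (12 in the lymph node fit) and 0 lower, with a median of 0.95. Hacl1, of α-oxidation, read 28.4, 29.5 and 31 CPM under vehicle and 157, 150.2, 194 and 161 CPM under CL, with all CL libraries above all vehicle libraries (2.48 ± 0.20, adjusted p = 2.02e-06). Abcd3, which carries fatty acids into the organelle, rose from 64 ± 8.05 to 179.5 ± 7.64 CPM (1.49 ± 0.17). Acaa1b, the peroxisomal thiolase, rose 15.6-fold (3.97 ± 0.23); it shares sequence with Acaa1a, so its own level is uncertain. In breakdown of branched-chain amino acids, a fuel of brown fat, 23 of 24 genes were higher (12 in the lymph node fit) and 0 lower, with a median of 1.18, with Mccc1, of leucine breakdown, at 1.99 ± 0.24 and Bckdha, of the shared dehydrogenase, at 1.45 ± 0.22. In ketone body metabolism 7 of 11 genes were higher (3 in the lymph node fit) and 4 lower, with a median of 0.58. Oxct1, which burns ketone bodies, rose from 229 ± 58.8 to 568 ± 58.9 CPM (1.31 ± 0.19), while Bdh1 (-1.35) and Bdh2 (-1.58), annotated as dehydrogenases of ketone bodies, and Acss1 (-0.33†), which activates acetate, fell.

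Genes of lipid synthesis and of lipid release both rose. In de novo lipogenesis 13 of 22 genes were higher and 0 lower, with a median of 0.77. Fasn, fatty acid synthase, read 442, 329 and 617 CPM under vehicle and 4143, 3541, 2913 and 4000 CPM under CL. The lowest CL library, Old_CL 3, stood at more than 4 times the highest vehicle library (2.98 ± 0.51, adjusted p = 3.86e-04, or 2.29 in the lymph node fit). Acly, which splits citrate in the cytosol to feed the path, read 146, 138 and 141 CPM under vehicle and 218, 210.2, 194 and 219 CPM under CL and did not pass (0.57 ± 0.25, adjusted p = 0.0742). It was called higher with limma-voom (0.57) and with only the 12-month groups in the fit (0.54). The groups did not overlap for Acly, and at 2 months it rose from 192 ± 60.8 to 1894 ± 665 CPM (3.31 ± 0.25), a difference between ages that passed (interaction -2.73 ± 0.34, adjusted p = 8.85e-04) in all 26 settings tried. Me1, malic enzyme, which supplies NADPH to the path, rose from 144 ± 36.4 to 515 ± 26.2 CPM (1.83 ± 0.31†); the lymph node fit kept 4 of the list.

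In glycerol supply and triglyceride synthesis 15 of 16 genes were higher (4 in the lymph node fit) and 1 lower, with a median of 1.28. Agpat2, an acyltransferase of that path, read 173, 126 and 214 CPM under vehicle and 1034, 987, 924 and 1038 CPM under CL (2.54 ± 0.35, adjusted p = 7.56e-05), a 5.83-fold rise without overlap. Gpd1, which makes the glycerol 3-phosphate backbone, rose from 731 ± 209 to 3053 ± 171 CPM (2.06 ± 0.35), and Lpin2, a phosphatase of the same path, fell (-0.42†). In lipolysis and its brakes 14 of 15 genes were higher and 0 lower, with a median of 1.21, but 9 without Old_Ctrl 3 and Old_CL 3 and 3 in the lymph node fit. Abhd5, the coactivator of the first lipase, rose from 125 ± 18.7 to 280.1 ± 30.8 CPM (1.17 ± 0.17). The receptors that restrain lipolysis rose too: Ptger3, for prostaglandin E2, read 4.76, 13.9 and 12.6 CPM under vehicle and 42.5, 44.3, 54.3 and 38.5 CPM under CL with no overlap (2.01 ± 0.27, adjusted p = 6.71e-05), Hcar2, for nicotinic acid and ketone bodies, changed by 1.43 ± 0.23†, Hcar1, for lactate, by 1.38 ± 0.28†, and Adora1, for adenosine, by 1.42 ± 0.29†. Lpl, lipoprotein lipase, which draws fatty acids from plasma, rose from 4220 ± 1262 to 15543 ± 1846 CPM (1.88 ± 0.26, or 1.28 in the lymph node fit), and in its list 14 of 19 genes were higher (2 in the lymph node fit, 9 in the summed fit and 8 without the muscle-rich pair) and 2 lower, with a median of 0.83, with 9 higher without Old_Ctrl 3.

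In cholesterol synthesis 17 of 22 genes were higher (7 in the lymph node fit and 9 without the muscle-rich pair) and 2 lower, with a median of 0.51, 10 higher without Old_Ctrl 3 and 11 with Old_CL 1, 2 and 4 summed. The enzyme gene Nsdhl (1.72 ± 0.16) rose, and Insig1, a feedback inhibitor of the pathway's transcription factor, rose 5.41-fold, reading 72.1, 47.4 and 74.2 CPM under vehicle and 330.2, 313, 416 and 333 CPM under CL (2.44 ± 0.28, adjusted p = 2.10e-05). Srebf2, that transcription factor, fell from 95 ± 8.36 to 66.3 ± 5.35 CPM (-0.52 ± 0.10†).

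For glucose use, 16 of 26 genes were higher (5 in the lymph node fit) and 2 lower, with a median of 0.70. Ldhb (1.26) and Pgam1 (1.68) rose, and Hk1 (-0.41†) and Aldoc (-1.34†, not called without the muscle-rich pair) fell. In the glycogen list 8 of 20 genes were higher (2 in the lymph node fit) and 0 lower, with a median of 0.52, and 5 rose without Old_Ctrl 1. Gys2, a glycogen synthase best known from liver, read 6.34, 2.13 and 6.94 CPM under vehicle and 74, 63.9, 66.9 and 75 CPM under CL (3.87 ± 0.69, adjusted p = 8.19e-04), a 14.6-fold rise, or a log2 change of 3.04 in the lymph node fit. In insulin signalling 7 of 20 genes were higher (1 in the lymph node fit) and 3 lower, with a median of 0.25: Irs1 rose from 51.9 ± 11.3 to 110.4 ± 16.3 CPM (1.08 ± 0.22†) and Socs3, an inhibitor of cytokine and insulin signals, fell from 28.4 ± 4.72 to 13.7 ± 1.89 CPM (-1.05 ± 0.17).

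Among adipocyte identity genes 16 of 20 genes were higher and 0 lower, with a median of 1.08, with 4 still called in the lymph node fit. Lep, the satiety hormone leptin, read 643, 562 and 851 CPM under vehicle and 1627, 1892, 1836 and 1689 CPM under CL (1.36 ± 0.30†, adjusted p = 0.00187). Every CL library was above every vehicle library, while at 2 months Lep went from 619 ± 299 to 445 ± 116 CPM (-0.47 ± 0.26; interaction 1.84 ± 0.40, adjusted p = 0.0147, not called with Old_CL 1, 2 and 4 summed). Adiponectin (Adipoq) rose from 2182 ± 423 to 5070 ± 722 CPM (1.22 ± 0.29†) and Retn, resistin, from 513 ± 171 to 1401 ± 93.5 CPM (1.45 ± 0.22, or 0.77 in the lymph node fit). Cfd, adipsin, one of the most abundant adipocyte transcripts, did not pass (from 12231 ± 2791 to 10871 ± 625 CPM, -0.17 ± 0.25, adjusted p = 0.598), so the list did not move as one. Nrg4, a secreted factor of brown fat, rose from 63.7 ± 14.2 to 167 ± 12.3 CPM (1.39 ± 0.21), and Slit2, another secreted factor, fell (-1.01 ± 0.29).

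Genes of the extracellular matrix moved in both directions, with more called lower than higher. Lower were 28.9% of collagens, 40.6% of matrix enzymes and inhibitors and 47.1% of glycoproteins and proteoglycans, against 22.2% of all genes. Higher were 13.2%, 9.38% and 14.7%, against 23.1%. Summed collagens overlapped between groups, at 17382.5, 5429 and 11986 CPM in Old_Ctrl 1, 3 and 4 and 7825 to 7946 CPM after CL. Among collagens 11 of 38 genes were lower (4 in the lymph node fit) and 5 higher (1 in the lymph node fit and 3 in the summed fit), with a median of -0.36, among matrix enzymes and their inhibitors 13 of 32 genes were lower and 3 higher, with a median of -0.38, and among glycoproteins and proteoglycans 16 of 34 genes were lower (9 in the lymph node fit) and 5 higher (1 in the lymph node fit and 2 in the summed fit), with a median of -0.77. Col1a2, of fibrillar type I collagen, read 3345, 1151 and 2358 CPM in Old_Ctrl 1, 3 and 4 and 586, 578, 645 and 575 CPM in Old_CL 1, 2, 3 and 4. The vehicle libraries differed about 3-fold among themselves, and all lay above the CL libraries (-1.94 ± 0.34, adjusted p = 4.44e-04). Old_Ctrl 1 set much of the vehicle level: Col1a1 changed by -1.76 ± 0.44 and by -1.15 without Old_Ctrl 1, and its libraries overlapped. Fn1, fibronectin, read 1294, 1045 and 850.5 CPM under vehicle and 261, 263, 252 and 271 CPM under CL (-2.02 ± 0.55†‡, adjusted p = 0.00866), with no overlap. The protease genes Mmp3 (-1.92, or -2.59 in the lymph node fit) and Mmp14 (-1.22) and the inhibitor gene Timp4 (-1.39) fell together, as did Pcolce, which promotes procollagen processing (-1.18), and the small proteoglycan gene Dcn (-1.32). With Old_CL 1, 2 and 4 summed 6 collagens and 9 glycoproteins fell, and 7 collagens without Old_Ctrl 1.

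Of the 10 collagen and glycoprotein genes that rose, 8 encode components of basement membranes, the sheets around adipocytes and vessels, and the others were Col10a1 (under 1 CPM in all libraries; 3.17†, or 3.89 without Old_Ctrl 4) and Col28a1 (0.78†‡). Grouped after the values were seen, 8 of the 16 basement membrane genes in these lists rose and 2 fell, while of the 10 fibrillar collagen genes 4 fell and 0 rose. Col4a1, of the type IV network, read 933, 625 and 1079 CPM under vehicle and 1668, 1839, 1674 and 1680 CPM under CL (0.96 ± 0.25†, adjusted p = 0.00575), and Col15a1 rose from 155 ± 71.3 to 535 ± 75.5 CPM (1.79 ± 0.35†). Nid2, a linker of the network, rose from 45.4 ± 4.88 to 83 ± 7.24 CPM (0.88 ± 0.16), and it alone of the 8 was called in every setting tried. Hspg2 (0.85 ± 0.25†‡), the proteoglycan perlecan, also rose. Of the 8, 4 calls depended on single libraries, Col4a2 (0.85 ± 0.25†‡) on Old_Ctrl 3 (0.68), Nid1 (0.49 ± 0.16†‡) on Old_Ctrl 1 (0.45) and Old_Ctrl 3 (0.44), Lama4 (0.51 ± 0.16†‡) on Old_Ctrl 4 (0.44) and Sparc (0.77 ± 0.22†) on Old_Ctrl 3 (0.60), each given with its change without that library. Col4a5 (-1.12) and Lama2 (-0.92), also of basement membranes, fell.

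**Figure D5:**
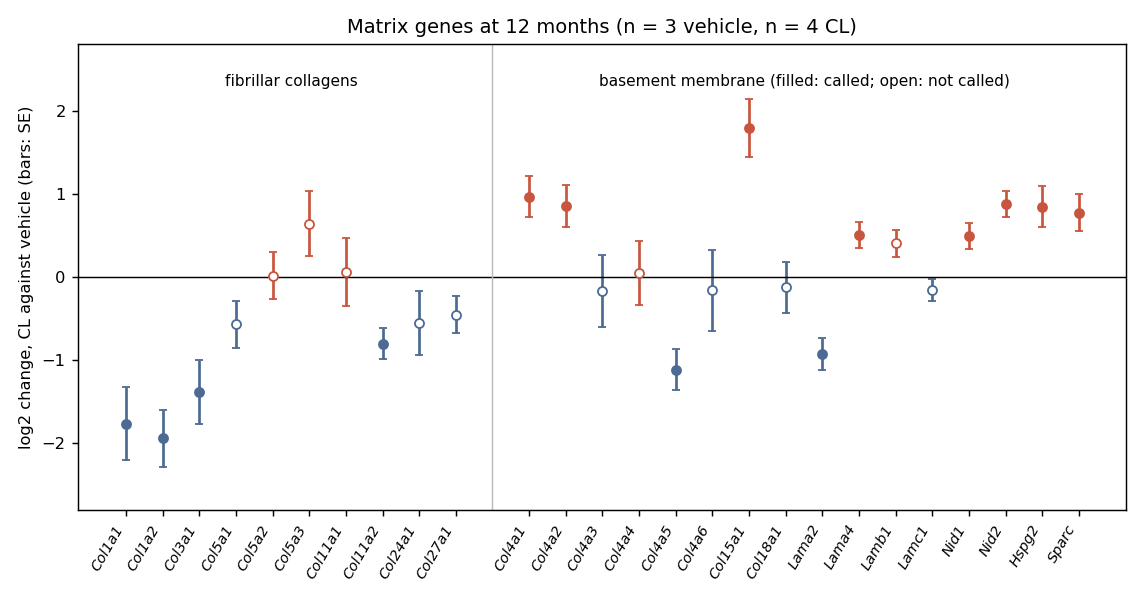
Log2 change (± SE) with CL at 12 months of the fibrillar collagen genes and the basement membrane genes in the lists, filled where called. No fibrillar member lies above 0 with a call, and 8 of 16 basement membrane members lie above 0 with a call.

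Markers of adipose progenitors, the stromal cells that can become adipocytes, were more often lower than higher. Of them, 12 of 25 genes were lower and 3 higher, with a median of -0.68, and 11 fell in the lymph node fit. Pdgfra, the receptor that defines these cells, read 122, 122 and 142 CPM under vehicle and 55.4, 59.7, 60.8 and 56.9 CPM under CL (-1.14 ± 0.17, adjusted p = 1.32e-04), with no overlap. Dpp4, of the early progenitors, fell from 126 ± 15.7 to 38.6 ± 4.92 CPM (-1.71 ± 0.27) and Cd34 from 287 ± 18 to 109.6 ± 6.79 CPM (-1.39 ± 0.24). Pi16, which marks the same early cells, did not pass (-1.19 ± 0.63, adjusted p = 0.14), but was called lower with only the 12-month groups in the fit (-1.22). Fgf10 (1.0†), Zfp423 (0.90†) and Cxcl14 (0.76†‡) rose; the call of Cxcl14 was lost without Old_Ctrl 1 (0.59), Old_Ctrl 3 (0.64), Old_CL 2 (0.74), Old_CL 3 (0.72) and Old_CL 4 (0.75). Among Wnt ligands and antagonists 15 of 28 genes were lower (5 in the lymph node fit) and 5 higher (0 in the lymph node fit and 2 in the summed fit), with a median of -0.81, or 9 lower with Old_CL 1, 2 and 4 summed and 3 higher without Old_Ctrl 1 or Old_Ctrl 4. Sfrp4, a secreted antagonist, read 48, 28.8 and 39.4 CPM under vehicle and 5.78, 4.83, 5.76 and 7.23 CPM under CL (-2.70 ± 0.64, adjusted p = 0.00473), a 6.5-fold fall. Sfrp2, of the same family, read 98.1, 45.6 and 49.7 CPM under vehicle and 14.8, 12.5, 10.7 and 15.6 CPM under CL (-2.25 ± 0.59†, adjusted p = 0.0081). Dkk2 (-1.93) and Dkk3 (-1.54) fell and Wnt5a rose (0.68†).

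In TGF-β and activin signalling 11 of 32 genes were lower (5 in the lymph node fit) and 5 higher (2 in the lymph node fit), with a median of -0.20: the receptor gene Tgfbr2 (-0.80) and the target gene Ctgf (-0.95) fell, and Ltbp3, which holds latent TGF-β, rose from 221 ± 26.3 to 654 ± 59.5 CPM (1.56 ± 0.20). Of the genes of mural cells, which wrap vessels, 8 of 18 genes were higher (1 in the lymph node fit) and 0 lower, with a median of 0.41, or 4 with Old_CL 1, 2 and 4 summed. Acta2, smooth muscle actin, rose from 83.7 ± 5.65 to 172 ± 39.9 CPM (1.04 ± 0.21†) and Cspg4, of pericytes, from 41.4 ± 9.07 to 119 ± 25.3 CPM (1.53 ± 0.33†). Of endothelial genes 5 of 29 genes were higher (1 in the lymph node fit, 3 in the summed fit and 3 without the muscle-rich pair) and 2 lower, with a median of 0.30, or 3 higher with upper-quartile scaling or without Old_Ctrl 3, Old_Ctrl 4, Old_CL 1 or Old_CL 2, and 11 with only the 12-month groups in the fit: Nos3, the endothelial nitric oxide synthase, read 42.2, 44.5 and 52 CPM under vehicle and 152, 148, 132 and 148 CPM under CL (1.64 ± 0.17, adjusted p = 1.29e-05), while Pecam1, of all endothelium, did not pass (0.12 ± 0.11, adjusted p = 0.362). Pdpn (-1.47) and Lyve1 (-1.56‡, or -2.43 in the lymph node fit), both found on lymphatic vessels among other cells, fell. Which cells these falls came from was not tested.

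Most immune lists had a larger share lower than the 22.2% of all genes. Of T and NK cell genes 30 of 32 genes were lower and 0 higher, with a median of -1.11, of class II antigen presentation 18 of 20 genes were lower and 0 higher, with a median of -0.86 and of resident macrophage genes 17 of 23 genes were lower and 0 higher, with a median of -1.18. Of lipid-associated macrophage and lysosome genes 7 of 24 genes were lower (3 in the summed fit and 15 without the muscle-rich pair) and 2 higher, with a median of -0.31, so 29.2% were lower, but 13 were lower without Old_Ctrl 3 and 4 without Old_Ctrl 4. Of neutrophil, mast cell and eosinophil genes 9 of 14 genes were lower (0 in the lymph node fit and 3 in the summed fit) and 1 higher, with a median of -0.96. For the first 3 of these lists, in the lymph node fit 9, 11 and 10 were still lower. Ccl8, a chemokine of tissue macrophages, read 154, 61 and 63.6 CPM under vehicle and 11.6, 12.5, 13.9 and 13.2 CPM under CL (-2.83 ± 0.42, adjusted p = 1.90e-04), the largest named fall. Old_Ctrl 1 was the highest, and the groups did not overlap. Mrc1, the mannose receptor of resident macrophages, fell from 244 ± 49.4 to 90.5 ± 9.38 CPM (-1.43 ± 0.34) and C1qa from 402 ± 106 to 165 ± 27.5 CPM (-1.28 ± 0.29). The macrophage count depended on the near-identical libraries: 6 genes fell with Old_CL 1, 2 and 4 summed. The pan-macrophage gene Emr1 (-0.79 ± 0.40, adjusted p = 0.126) did not pass; Old_Ctrl 3 stood below the CL mean, and the call was made without it (-1.19) and without the muscle-rich pair (-1.38).

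Ccl5, a chemokine of T and NK cells, read 166, 207 and 169 CPM under vehicle and 66.5, 63.1, 44.5 and 59.4 CPM under CL (-1.63 ± 0.25, adjusted p = 1.47e-04), with no overlap. Lck, the T cell kinase, fell from 96.5 ± 8.31 to 43.8 ± 9.13 CPM (-1.14 ± 0.18), and Flt3, of dendritic cells, from 29.2 ± 6.09 to 8.62 ± 1.52 CPM (-1.78 ± 0.25). Plac8 read 103, 71.5 and 81.1 CPM under vehicle and 18.5, 18.6, 19.2 and 18.7 CPM under CL (-2.18 ± 0.25, adjusted p = 2.31e-05) and was called in every setting at 12 months. Of chemokines and receptors 28 of 47 genes were lower (12 in the lymph node fit) and 5 higher (3 in the lymph node fit and 3 in the summed fit), with a median of -0.90; Ackr4, a scavenger of lymph node chemokines, rose from 13.9 ± 3.21 to 42 ± 5.59 CPM (1.58 ± 0.24). Of inflammatory and type 2 cytokine genes 13 of 20 genes were lower (5 in the lymph node fit) and 0 higher, with a median of -0.72, or 8 lower without Old_Ctrl 1, with Il33, an alarmin of stromal cells, at -1.23 ± 0.20. Of B cell and lymph node genes 14 of 19 genes were lower (2 in the lymph node fit) and 0 higher, with a median of -0.71, but 7 fell without Old_Ctrl 1, 9 without Old_Ctrl 3 and 5 without the muscle-rich pair. The covariate of the lymph node fit is the mean of this same list. The count of 2 therefore follows from the fit and is no test of these genes.

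Interferon response genes were among those lower. Of them, 21 of 30 genes were lower and 1 higher, with a median of -0.77, and 6 fell in the lymph node fit. Oasl2, an antiviral protein, read 81.4, 32 and 50.3 CPM under vehicle and 12.3, 13.9, 18.6 and 14.1 CPM under CL (-1.86 ± 0.31, adjusted p = 3.60e-04), and Zbp1, a sensor of nucleic acids, fell from 37.9 ± 20.7 to 11.9 ± 0.17 CPM (-1.64 ± 0.26). The one member that rose was Cxcl9 (0.70 ± 0.16†), a target of interferon γ. After this fall was seen, promoters were read for the core of the interferon-stimulated response element, searched on both strands, in the same RefSeq windows. It stood in 11 of the 23 listed genes with a promoter (47.8%), in 0.803% of all promoters, in 1.61% of genes that fell and in 0.34% of genes that rose. Of the 11, 6 fell and 5 did not pass. Oas1a, Ifit1, Ifit3 and Igtp, which fell, and Cxcl10, which did not pass, were chosen after their values were seen and are shown with the matches in capitals to set letters beside response.
Oas1a, chr5:120907526-120907585, minus strand: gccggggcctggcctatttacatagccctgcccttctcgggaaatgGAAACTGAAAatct
Ifit1, chr19:34640769-34640828, plus strand: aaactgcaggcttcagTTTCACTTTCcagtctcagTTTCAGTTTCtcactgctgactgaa
Ifit3, chr19:34583365-34583424, plus strand: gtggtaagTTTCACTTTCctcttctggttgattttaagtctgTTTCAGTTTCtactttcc
Igtp, chr11:58199496-58199555, plus strand: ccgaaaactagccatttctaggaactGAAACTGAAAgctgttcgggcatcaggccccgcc
Cxcl10, chr5:92349068-92349127, minus strand: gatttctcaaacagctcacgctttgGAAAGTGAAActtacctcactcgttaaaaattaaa
Oas1a fell from 21.9 ± 11.6 to 7.08 ± 1.2 CPM (-1.58 ± 0.34†), and Ifit1 fell by 1.33†, Ifit3 by 0.76†‡ and Igtp by 0.53†‡ on the log2 scale. The call of Igtp was lost without Old_Ctrl 1 (-0.39), and that of Ifit3 without Old_Ctrl 1 (-0.32), Old_CL 2 (-0.73) and Old_CL 3 (-0.74). Cxcl10 read 6.05, 3.39 and 3.93 CPM under vehicle and 6.63, 5.08, 3.88 and 5.17 CPM under CL, overlapping between groups (0.27 ± 0.28, adjusted p = 0.44). The same letters thus stood before genes that fell and genes that did not pass.

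The proteasome, which degrades ubiquitinated proteins, divided by the role of its subunits. Of the list, 23 of 43 genes were higher (4 in the lymph node fit) and 4 lower, with a median of 0.28, or 15 higher without Old_Ctrl 3 and 10 without the muscle-rich pair. The 4 that fell belong to the interferon-inducible immunoproteasome: Psmb8 read 172, 157 and 154 CPM under vehicle and 92.9, 97.7, 89.3 and 95.1 CPM under CL with no overlap (-0.78 ± 0.09, adjusted p = 2.10e-05), Psmb9 changed by -0.70 ± 0.09, Psmb10 by -0.56 ± 0.10 and the activator gene Psme1 by -0.28 ± 0.09†‡, the last call being lost without Old_Ctrl 1 (-0.28), Old_Ctrl 4 (-0.22), Old_CL 1 (-0.28) and Old_CL 2 (-0.27). Of the constitutive catalytic genes that they replace, Psmb5 (0.69 ± 0.11) and Psmb7 (0.81 ± 0.13) rose.

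Cell cycle genes were lower at 12 months: 18 of 30 genes were lower (5 in the lymph node fit) and 0 higher, with a median of -0.61, or 10 lower with Old_CL 1, 2 and 4 summed. Mcm3, a subunit of the replicative helicase, read 35.2, 30.5 and 34.6 CPM under vehicle and 18.5, 17.6, 19.1 and 16.7 CPM under CL (-0.89 ± 0.11, adjusted p = 4.16e-05), and Mki67, of cycling cells, fell from 34.3 ± 4.68 to 20.2 ± 1.33 CPM (-0.75 ± 0.16†). The interaction was called for 10 of 30, all with a more negative change at 12 months. Of all genes tested, 3.77% were called in that direction. The count of 10 became 2 without Old_Ctrl 4, 16 without Old_Ctrl 3, 3 to 6 without Old_Ctrl 1, Old_CL 1, 2 or 4, Young_Ctrl 2 or 3, or Young_CL 1, 2 or 3, and 0 with Old_CL 1, 2 and 4 summed. In the list of senescence and cell cycle arrest 9 of 22 genes were lower (4 in the lymph node fit) and 3 higher, with a median of -0.25: Cdkn2a, which encodes p16, fell from 3.41 ± 1.66 to 1.07 ± 0.198 CPM (-1.56 ± 0.37†) and Lmnb1, whose loss marks senescent cells, fell from 28.2 ± 4.06 to 14.2 ± 0.882 CPM (-0.98 ± 0.14), so members moved in both senses of that name. Cdkn2c rose from 57.5 ± 9.4 to 128 ± 26.7 CPM (1.16 ± 0.27†). Immediate early genes, which respond within minutes to signals and to handling of tissue, were lower: 14 of 25 genes were lower and 1 higher, with a median of -0.58. Junb read 72.1, 62.3 and 70.3 CPM under vehicle and 29, 31.3, 31.6 and 28.6 CPM under CL (-1.18 ± 0.14, adjusted p = 2.15e-05), with no overlap; Fos did not pass (-0.99 ± 0.47, adjusted p = 0.0983). It changed by -0.11 without Old_Ctrl 4, and it passed without Old_Ctrl 3 (-1.37), without the muscle-rich pair (-1.66) and in the lymph node fit (-2.17). Nr4a2 rose (0.84†). Of clock genes 4 of 19 genes were higher and 0 lower, with a median of 0.25, with Per3 at 0.90 ± 0.18 and Nr1d1 at 0.99 ± 0.24†; the time of day at collection is not given in the labels.

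Some genes responded at 12 months in the direction opposite to that at 2 months or were called at 1 age, and passed the interaction test. Npr3, the clearance receptor of natriuretic peptides, which in fat work beside catecholamines, read 363, 306 and 276 CPM under vehicle and 665, 763, 977 and 662 CPM under CL at 12 months (1.28 ± 0.29†, adjusted p = 0.00259) and went from 329 ± 98.2 to 61.8 ± 23.4 CPM at 2 months (-2.42 ± 0.28; interaction 3.70 ± 0.41, adjusted p = 3.57e-04). The CL libraries were above the vehicle libraries at 12 months, and below them in mean at 2 months. Nnat, an imprinted gene of fat, read 2139, 2838 and 2607 CPM under vehicle and 1811, 2153, 1885 and 2017 CPM under CL, overlapping between groups (-0.36 ± 0.19, adjusted p = 0.125, though called with only the 12-month groups in the fit, -0.40), and went from 2121 ± 521 to 72.4 ± 11.2 CPM at 2 months (-4.87 ± 0.21; interaction 4.51 ± 0.27, adjusted p = 4.35e-07). Cd109, a TGF-β coreceptor, read 37, 12.6 and 23.8 CPM under vehicle and 6.78, 4.89, 5.08 and 4.95 CPM under CL (-2.15 ± 0.30, adjusted p = 7.29e-05) and went from 2.49 ± 0.667 to 6.71 ± 1.74 CPM at 2 months (1.45 ± 0.31; interaction -3.60 ± 0.43, adjusted p = 7.58e-04). These 3 differences were called in all 26 settings tried.

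Abat, which breaks down the transmitter GABA, read 20.6, 21.4 and 21.6 CPM under vehicle and 65.3, 77.9, 67 and 67 CPM under CL (1.70 ± 0.17, adjusted p = 1.01e-05) against -0.84 ± 0.18 at 2 months (interaction 2.55 ± 0.25, adjusted p = 1.81e-04). Bmp3 (1.72 ± 0.25), Celsr2 (1.76 ± 0.22) and Prelp (1.09 ± 0.26†) rose at 12 months, with interactions of 2.15 ± 0.34, adjusted p = 0.00337, 2.34 ± 0.30, adjusted p = 8.87e-04 and 2.22 ± 0.35, adjusted p = 0.00337. Dio2, described above, rose less at 12 months than at 2 months (5.90 ± 0.32; interaction -2.41 ± 0.50, adjusted p = 0.0125), a call lost without Old_Ctrl 4. Acot11, a fatty acyl-CoA thioesterase induced in brown fat, changed by 0.70 ± 0.23†‡ at 12 months and 2.83 ± 0.22 at 2 months (interaction -2.13 ± 0.31, adjusted p = 0.00224); its 12-month call was lost without Old_Ctrl 3 (0.68), Old_Ctrl 4 (0.64) and Old_CL 1 (0.65). Ucp1, by contrast, had no interaction call (-0.50 ± 0.58, adjusted p = 0.618), and its vehicle level was lower at 12 months in mean (2.76 ± 1.34 against 13 ± 9 CPM at 2 months). Its mean after CL was also lower at 12 months (68.5 ± 17.5 against 411 ± 132 CPM at 2 months). These differences in level between ages were not tested. Of the genes that rose at 12 months 2219 also rose at 2 months and 99 fell there, and of those that fell 1730 also fell and 25 rose.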

How the data were processed

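PolyA RNA was sequenced from 15 libraries of 4 groups, set by age and by CL or vehicle. The submitters' processing notes name mm9, STAR and featureCounts of Subread, without versions. The values analysed are the raw gene counts that the authors deposited. No aligned reads or coordinates of mm9 were used. Genes were kept by filterByExpr of edgeR 4.0.16 (R 4.3.3), which left 15288 of 24015, and scaled by TMM. The 12-month response, the 2-month response and the age by CL interaction were tested with edgeR's quasi-likelihood F test (robust), fitted on all 15 libraries with 1 mean for each group, with Benjamini-Hochberg adjustment over all genes. Adjusted p-values below are from this test, and an SE is the size of the log2 change divided by √F. On simulated counts of the same sizes, the 12-month test found 72.4% of 98 genes with a 2-fold change and 94% of 100 with a 4-fold change, and the interaction test 53.1% and 89%. The simulation changed only these genes of 15288, whereas 45.2% were called in the data. It also drew every library independently, whereas Old_CL 1, 2 and 4 were nearly alike. These rates are therefore not the power of the tests on the data.

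The members and the 64 gene lists were chosen with earlier results of these data known, so lists are described by counts and medians. Named genes are, per list, the 8 with the smallest p, called members that move against the majority and uncalled regulators or defining members. To these come the 15 largest rises and falls among called genes whose 12-month groups did not overlap. The 12 largest interactions in each direction were added too (average log2 CPM of at least 3 for both). Exceptions are named as such, and some results of the rule are not reported here. Of the genes tested 37 share all counts with another. The alternatives tried were DESeq2 1.42.0, limma-voom (limma 3.58.1), scaling by RLE or upper quartiles, a stricter filter or none, the 12-month groups alone, a replicate block, each library left out, the muscle-rich pair left out, Old_CL 1, 2 and 4 summed, and muscle or lymph node markers as a covariate. Promoters are from RefSeq (GRCm38.p6). Same-numbered libraries at 12 months did not deviate together in every pair (r = 0.0972, 0.300 and 0.173 across genes), so they were not paired.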

Additional observations from a re-analysis of the deposited data

Results flagged for a closer look

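The age by CL interaction was called for 33 of the genes named above. The naming rule draws on the largest interaction calls in each direction, so this count and its split by direction are partly set by that rule. Over all genes tested it was called for 1083 (7.08%), 506 positive and 577 negative. The difference, the 12-month minus the 2-month log2 change, was positive for 9 of the 33: Nnat (4.51), Npr3 (3.70), Abat (2.55), Celsr2 (2.34), Prelp (2.22), Bmp3 (2.15), Lep (1.84), Acta2 (1.60) and Per3 (0.90). It was negative for 24. The largest were those of Cd109 (-3.60), Ccl8 (-3.10), Acly (-2.73), Dio2 (-2.41) and Acot11 (-2.13). Among immune and stromal genes it was -1.79 for Mmp3, -1.70 for Col1a2, -1.67 for Plac8, -1.62 for Oasl2, -1.42 for Cd34, -1.16 for Mmp14 and -1.06 for Pcolce. Among mitochondrial and thermogenic genes it was -1.29 for Cox5a, -0.99 for Gyk, -0.87 for Cox6a1 and Mpc2, -0.77 for Atp5k, -0.59 for Esrra and -0.53 for Acss1. For Rgs2 it was -1.13, for the nuclear and cell cycle genes Lmnb1 -1.02, Mki67 -1.0 and Mcm3 -0.58, and for the proteasome gene Psmb5 -0.73. Of these 33 calls 12 were made in all 26 settings tried and 12 in 21 to 25, while 9 were less stable: those of Cox6a1, Col1a2, Oasl2 and Pcolce were made in 11 settings, of Esrra and Mpc2 in 12, of Mcm3 in 13, of Atp5k in 14 and of Per3 in 15. Each of these 9 was lost when any of several single libraries was left out.

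Within the 4 Old_CL libraries, 1 library lay apart from the rest for 8 of 52 gene and marker levels tested, judged by the gap to the nearest library over the whole range against the limit for 4 libraries in Dixon's table (about 1 in 20 for independent values of like spread). That library was Old_CL 3 for summed skeletal muscle markers (0.986, high), Prdm16 (0.946, low), summed T and NK cell markers (0.916, low), Col1a2 (0.844, high) and Mdh2 (0.83). It was Old_CL 2 for Col4a1 (0.93) and Abat (0.867), and Old_CL 1 for Cd109 (0.896). Old_CL 1, 2 and 4 were nearly alike and may not be independent, and the 52 levels were chosen and partly related. The 8 of 52 can therefore not be compared with the rate of 1 in 20.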

How the results depend on the processing

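Of the 169 named genes called at 12 months, 107 kept their call in all 19 settings, and no named gene changed direction. The 12-month count of 6916 stayed within 1.5 times under every alternative except the lymph node covariate (2704), which also left 1267 genes called at 2 months, against 6706, and 470 list members, against 994. Leaving out 1 library in turn gave 5599 to 6245 genes at 12 months, 5418 to 7609 at 2 months and 872 to 948 list members. With upper-quartile factors 41.5% of the 12-month calls were higher, against 51.0%, and 38.7% of the 2-month calls, against 49.6%. The interaction count of 1083 was the least stable: 1871 with DESeq2, 171 with the replicate block, 139 with Old_CL 1, 2 and 4 summed, 578 with the muscle covariate and 431 to 2070 with 1 library left out, 431 without Old_Ctrl 4, 527 without Young_CL 1, 546 without Young_CL 2, 2070 without Young_CL 4, and 567, 532 and 529 without Old_CL 1, 2 or 4. The cause was not tested. The replicate block gave 5092 genes at 12 months, 5472 at 2 months and 848 list members, and it ended the calls of Atpif1, Fn1, Hspg2, Ifit3, Igtp, Lama4, Lyve1, Mrc1, Nrf1, Pdp1, Psme1, Rps4l and Sfrp4; Old_Ctrl 1 deviated most like Old_CL 4 (r = 0.128), not its own number. Without the muscle-rich pair 12 named genes lost their call: Acot11, Adrb3, Aldoc, Col10a1, Col4a2, Cxcl14, Nid1, Nrf1, Pdp1, Perm1, Rps4l and Sparc. With 3 against 4 libraries and 6495373 counts in the smallest, changes of lowly counted genes are the least certain.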
